A study of Mus musculus with 12 samples.

Results

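Cholesterol is built from acetyl-CoA through the mevalonate pathway, and 8 genes of this route and its control were described here: Hmgcs1, Idi1, Fdps, Fdft1, Sqle, Lss, Cyp51 and Insig1. They were chosen by name, as a set of genes that answer to cellular sterol, with earlier results of these data known. Their counts below thus describe the set and are no independent test of it. They were read from the count tables by their Ensembl identifiers. They are 8 of 49315 listed genes, and all 8 passed the filter on low counts that left 17416 genes for testing. RNA-seq was performed on mouse adult fibroblasts (MAFs), primary connective tissue cells grown from the ears of WT C57BL/6 mice or of Bmal1-/- (KO) mice. BMAL1 is the clock transcription factor that pairs with CLOCK to drive genes with E-box elements, and KO cells have no working circadian clock. Senescence was induced with 20 Gy of X-rays, and control cells had a sham exposure. The irradiated cells were then kept in culture for weeks before use. How long control cells were kept is not given, so X-rays and time in culture cannot be told apart in the senescence comparisons. All cells were grown at 3% O2, were given 100 nM dexamethasone for 2 h to set their clocks, and were harvested 12 h after that. Each genotype was sequenced as control and as senescent cells, which gave 4 groups with 3 libraries each. All were seen at a single time after dexamethasone, which need not be the same clock phase in each group.

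The first enzymes of the pathway assemble mevalonate in the cytosol. Mevalonate is turned into isoprenoid units, and these are joined to farnesyl diphosphate, which also feeds protein prenylation, ubiquinone and dolichol. Fdft1 commits farnesyl diphosphate to sterols, after which Sqle and Lss form and close the sterol ring system and Cyp51 starts the trimming of lanosterol to cholesterol. The genes share a master regulator, SREBP2 (gene Srebf2), which is held in the endoplasmic reticulum with SCAP by the INSIG proteins when sterol is plentiful and is released and processed in the Golgi when sterol is low. INSIG1 is thus both a brake on this response and a product of it.

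To show the DNA in front of these genes, windows of 250 bases before the RefSeq transcription start (GRCm38.p6) were searched on both strands for short elements. A window was at hand for 5 of the 8 genes (Hmgcs1, Insig1, Idi1, Lss and Cyp51). The windows of the mevalonate enzyme Hmgcs1 (chr13:119690101-119690350, plus strand), the regulator Insig1 (chr5:28071162-28071411, plus strand) and the lanosterol enzyme Cyp51 (chr5:4104698-4104947, minus strand) are given 5′ to 3′ on the strand of the gene, because together they hold each kind of element that was marked. Capitals mark the core of a sterol regulatory element, a CCAAT box (ATTGG where it lies on the other strand) or the E-box CACGTG.
Hmgcs1: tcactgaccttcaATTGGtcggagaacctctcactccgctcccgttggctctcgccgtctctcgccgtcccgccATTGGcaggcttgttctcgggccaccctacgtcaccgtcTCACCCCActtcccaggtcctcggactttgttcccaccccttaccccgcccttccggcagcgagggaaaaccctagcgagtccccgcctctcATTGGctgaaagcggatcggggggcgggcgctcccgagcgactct
Insig1: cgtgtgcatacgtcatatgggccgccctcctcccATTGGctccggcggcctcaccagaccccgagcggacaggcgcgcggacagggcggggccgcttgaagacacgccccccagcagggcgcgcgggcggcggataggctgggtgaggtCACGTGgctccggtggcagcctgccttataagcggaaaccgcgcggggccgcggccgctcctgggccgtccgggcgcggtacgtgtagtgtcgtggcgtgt
Cyp51: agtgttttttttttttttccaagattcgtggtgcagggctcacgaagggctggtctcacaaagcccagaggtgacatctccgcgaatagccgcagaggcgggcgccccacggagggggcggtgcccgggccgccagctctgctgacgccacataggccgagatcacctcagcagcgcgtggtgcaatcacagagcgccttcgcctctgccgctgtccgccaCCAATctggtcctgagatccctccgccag
The core letters of the sterol regulatory element to which SREBPs bind, TCACNCCA, were found only in the Hmgcs1 window among the 5, at positions -137 to -130 from the start, and in 3.67% of all 32851 RefSeq windows. The E-box CACGTG, the element of BMAL1 and CLOCK, was found only in the Insig1 window among the 5, at -101 to -96, and in 6.02% of all windows. A CCAAT box, the element of NFY, stood in all 5 windows, against 33.8% of all windows, and a GC box (GGGCGG) likewise in all 5, against 32.7%. The AP-1 element TGANTCA was in 0 of the 5 and in 6.75% of all. These are exact matches of letters in a short window, and binding was not measured in them here. In the GENCODE M21 annotation, used here for gene coordinates, Insig1, Idi1, Lss and Cyp51 start inside their windows. Elements close to the RefSeq start, such as the CCAAT boxes of Cyp51 and Idi1, thus lie within the gene by that annotation. Variants of the elements were not searched, so a window without a match may still hold a variant.

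The libraries held 23923030 to 31736083 assigned counts, and each gene described here had at least 417 in every library. Levels are given as CPM, counts scaled to library size with the trimmed mean of M-values (TMM). All 10 fibroblast markers, such as Col1a1 and Vim, were detected in every group. Of these, 5 were higher and 1 lower in KO control than in WT control, and 3 were higher and 3 lower in KO senescent than in WT senescent cells, with Thy1 at log2 fold changes of 1.22 and 0.86 and, in senescent cells, Col1a1 at 0.76 and Lum at -1.06. The targeted gene Arntl (Bmal1) read 29.8 to 33.2 CPM in WT control and 11.8 to 15.2 in KO control libraries, a log2 fold change of -1.26. In senescent cells it read 35.2 to 37.4 CPM in WT and 25.3 to 27.5 in KO, a smaller log2 fold change of -0.44. Every KO library thus lay below every WT library while reads over the gene were still counted. The summed level of adipocyte markers was lower in KO, but only 1 of these genes passed the test between the genotypes. In control cells Fabp4 averaged 8.77 CPM in WT and 7.65 in KO, and Cebpa went the other way, at 5.55 and 6.98 CPM. The adipocyte list as a whole was thus not shown to move. Its genes summed to 67 to 76 CPM in WT control and 45.5 to 49 in KO control, and to 59.5 to 65.1 in WT senescent and 40.8 to 46.2 in KO senescent libraries, with 1 of 5 lower in KO in each state. That gene was Pparg, an adipogenic regulator that is also on the sebocyte list, with log2 fold changes of -0.80 (edgeR adjusted p = 4.35e-08) and -1.12 (edgeR adjusted p = 9.2e-10), while the adipocyte hormone gene Adipoq was at a mean of 0.329 CPM or less in each group. Keratinocyte markers summed to 10.2 to 19.8 CPM, with Krt14 at a mean of 0.195 CPM or less in each group. Among them Krt5 averaged 1.37 CPM in WT control, 0.942 in KO control, 5.15 in WT senescent and 5.56 in KO senescent libraries, and Trp63 was lower in KO senescent than in WT senescent cells (log2 fold change -1.58, edgeR adjusted p = 6.25e-08). Macrophage markers summed to 11.8 to 21.7 CPM and endothelial markers to 2.21 to 8.57 CPM. Markers of cartilage cells moved with the groups as well. Matn1 was near 0, at 0.3 CPM or less in each group mean, but the summed level of the list was 7490 to 9300 CPM in WT control, 4970 to 6820 in KO control, 2040 to 2360 in WT senescent and 653 to 757 in KO senescent libraries, and 2 of 7 were lower in KO than in WT control cells and 7 of 7 in senescent cells. Proliferation markers summed to 1850 to 2380 CPM in WT control and 2050 to 2210 in KO control libraries, with 0 of 10 passing the test between them and to 256 to 278 in WT senescent and 185 to 216 in KO senescent libraries, with 9 of 10 lower in KO. The part of these shifts in the results that follow was not tested. A batch that followed the genotype cannot be told apart from it, since the counts came as 1 table per genotype and the labels name no batch. In such bulk RNA, a change in the share of a cell type and a change per cell cannot be told apart either.

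To ask whether loss of BMAL1 was accompanied by a change in sterol synthesis genes in cells that were not irradiated, KO control was compared with WT control. In edgeR's quasi-likelihood test over all 12 libraries, 7 of the 8 genes were higher in KO, where passing means a Benjamini-Hochberg adjusted p below 0.05 over all genes tested, and 0 were lower. Of all genes tested, 8.07% passed as higher and 4.96% as lower (1405 and 864 genes). These counts fell to 911 and 497 without WT control replicate 1, and the lower count to 462 and 437 without KO control replicates 2 and 3, while the 7 calls among the 8 genes held without any single library. The median log2 fold change was 0.392 for the 8 genes and 0.006 for all genes. Every gene that passed had a log2 fold change between 0.34 and 0.55, and none reached an absolute log2 fold change of 1, which 1.36% of all genes passed as higher and 1.18% as lower. In senescent cells none reached it either, against 1.29% higher and 2.19% lower.

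Hmgcs1 (ENSMUSG00000093930, chr13:119690379-119708260, plus strand) makes HMG-CoA, the precursor of mevalonate. It read 104, 122 and 111 CPM in WT control and 137, 147 and 145 CPM in KO control. Every KO library was above every WT library, and the log2 fold change was 0.35 ± 0.061 (SE, edgeR adjusted p = 0.000493, n = 3 against 3). Idi1 (ENSMUSG00000058258, chr13:8885501-8892451, plus strand) interconverts the isoprenoid building blocks isopentenyl and dimethylallyl diphosphate. It read 18.0, 20.4 and 18.8 CPM in WT control against 26.7, 28.3 and 29.0 CPM in KO control, again without overlap. Its log2 fold change of 0.55 ± 0.081 (edgeR adjusted p = 6.86e-05), a fold of 1.47, was the highest estimate among the 8 genes in this comparison.

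Fdps (ENSMUSG00000059743, chr3:89093588-89101959, minus strand), which makes farnesyl diphosphate, read 46.5, 51.7 and 48.8 CPM in WT control and 64.1, 69.9 and 61.9 CPM in KO control. The lowest KO library was above the highest WT library, and the log2 fold change was 0.42 ± 0.066 (edgeR adjusted p = 0.000158). Fdft1 (ENSMUSG00000021273, chr14:63145150-63179578, minus strand) is squalene synthase, the branch to sterols. It read 32.9, 30.7 and 28.8 CPM in WT control and 41.0, 42.0 and 39.7 CPM in KO control, a log2 fold change of 0.41 ± 0.068 (edgeR adjusted p = 0.000264). Exons of Fdft1 share 774 of 4227 bases with the lysosomal protease gene Ctsb on the opposite strand, at 413 to 956 CPM. Ctsb itself did not pass the test between the genotypes, at a log2 fold change of 0.09 in control and 0.04 in senescent cells.

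Among the sterol ring enzymes, Sqle (ENSMUSG00000022351, chr15:59315077-59331192, plus strand) oxidises squalene in a rate-controlling step. It read 51.6, 55.6 and 56.1 CPM in WT control and 72.5, 69.1 and 70.2 CPM in KO control, a log2 fold change of 0.38 ± 0.064 (edgeR adjusted p = 0.000374). Lss (ENSMUSG00000033105, chr10:76531588-76557138, plus strand), which cyclises oxidosqualene to lanosterol, read 38.4, 42.5 and 43.7 CPM against 53.4, 50.9 and 53.5 CPM. The Lss groups stood clear of each other, with a log2 fold change of 0.34 ± 0.059 (edgeR adjusted p = 0.000408). Cyp51 (ENSMUSG00000001467, chr5:4081145-4104746, minus strand), the lanosterol demethylase, read 85.5, 88.1 and 83.7 CPM in WT control and 119, 114 and 119 CPM in KO control. Its log2 fold change of 0.45 ± 0.053 (edgeR adjusted p = 4.21e-06) had the smallest adjusted p of the 8. Insig1 (ENSMUSG00000045294, chr5:28071363-28078662, plus strand), the regulator, was the gene that did not pass. Its WT control libraries at 57.0, 64.5 and 57.9 CPM overlapped those of KO control at 68.6, 69.6 and 61.6 CPM, and the log2 fold change was 0.16, with a 95% interval from 0.01 to 0.30 (edgeR adjusted p = 0.149). The libraries of the other 7 genes did not overlap between the genotypes, which held for 15.6% of all genes tested in this direction and for 10.3% in the other.

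**Figure D1:**
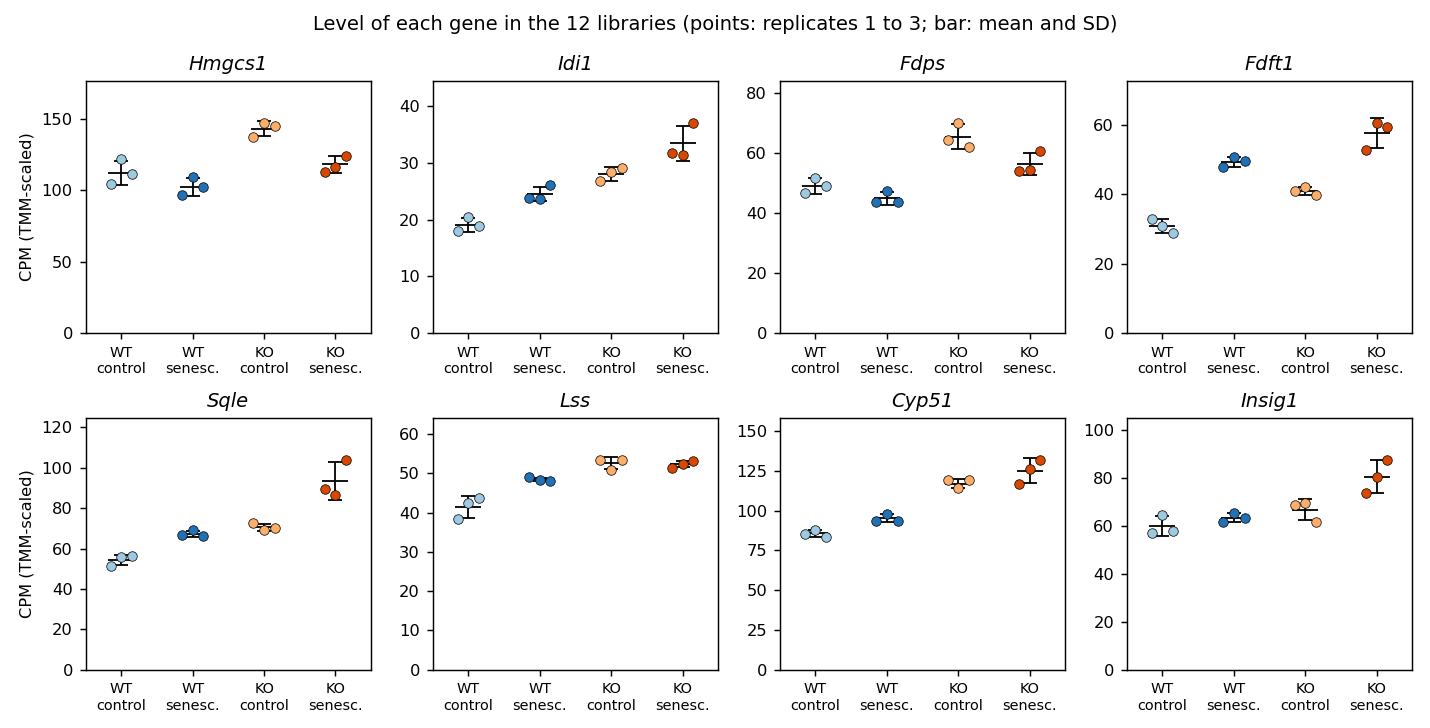
Level of each of the 8 genes, in CPM after trimmed-mean scaling, in the 4 groups. Points are replicates 1 to 3 from left to right, and the bar is the mean with its SD (n = 3). KO control points lie above WT control points for all genes but Insig1, and KO senescent points lie above WT senescent points for all 8.

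The same question was asked of senescent cells. Here too 7 of the 8 genes were higher in KO and 0 lower, against 11.9% of all genes higher and 11.8% lower. The median log2 fold change was 0.337 for the 8 genes and -0.017 for all genes. For all 8 genes the 3 KO senescent libraries lay above the 3 WT senescent libraries, which was so for 21% of all genes tested, as was the reverse.

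Sqle had the highest estimate. It read 66.8, 69.0 and 66.0 CPM in WT senescent and 89.5, 86.6 and 104 CPM in KO senescent, with a log2 fold change of 0.47 ± 0.063 (edgeR adjusted p = 1.13e-05). Idi1 followed at 23.8, 23.7 and 26.0 CPM against 31.8, 31.3 and 37.0 CPM, a log2 fold change of 0.44 ± 0.078 (edgeR adjusted p = 0.000239). Over both states of the cells the fold change of these 2 genes between the genotypes ran from 1.30 to 1.47. Cyp51 read 93.4, 98.0 and 93.8 CPM in WT senescent and 117, 126 and 132 CPM in KO senescent, a log2 fold change of 0.39 ± 0.053 (edgeR adjusted p = 1.22e-05). Insig1, which had missed the threshold in control cells, read 61.4, 65.2 and 63.4 CPM against 73.6, 80.4 and 87.5 CPM, a log2 fold change of 0.35 ± 0.067 (edgeR adjusted p = 0.000658). The Insig1 values of KO senescent cells were spread over a wider range than those of WT senescent cells, with an SD of 6.97 against 1.86 CPM.

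Fdps read 43.7, 47.3 and 43.6 CPM in WT senescent and 53.9, 54.3 and 60.6 CPM in KO senescent, a log2 fold change of 0.33 ± 0.066 (edgeR adjusted p = 0.000886). The differences of the next genes were smaller. Fdft1 read 47.7, 50.7 and 49.6 CPM against 52.7, 60.5 and 59.4 CPM, a log2 fold change of 0.22 ± 0.064 (edgeR adjusted p = 0.0148), and Hmgcs1 read 96.3, 109 and 102 CPM against 113, 116 and 124 CPM, a log2 fold change of 0.21 ± 0.061 (edgeR adjusted p = 0.018). Each of these calls rested on single libraries. Hmgcs1 had an adjusted p of 0.109, 0.065 and 0.0877 without WT senescent replicate 1, WT senescent replicate 3 and KO senescent replicate 3, and Fdft1 had 0.0711, 0.0753 and 0.0602 without WT senescent replicate 1, KO senescent replicate 2 and KO senescent replicate 3. Lss read 49.0, 48.3 and 48.2 CPM in WT senescent and 51.5, 52.5 and 53.2 CPM in KO senescent. Its log2 fold change of 0.11, with a 95% interval from -0.01 to 0.23, did not pass (edgeR adjusted p = 0.178).

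**Figure D2:**
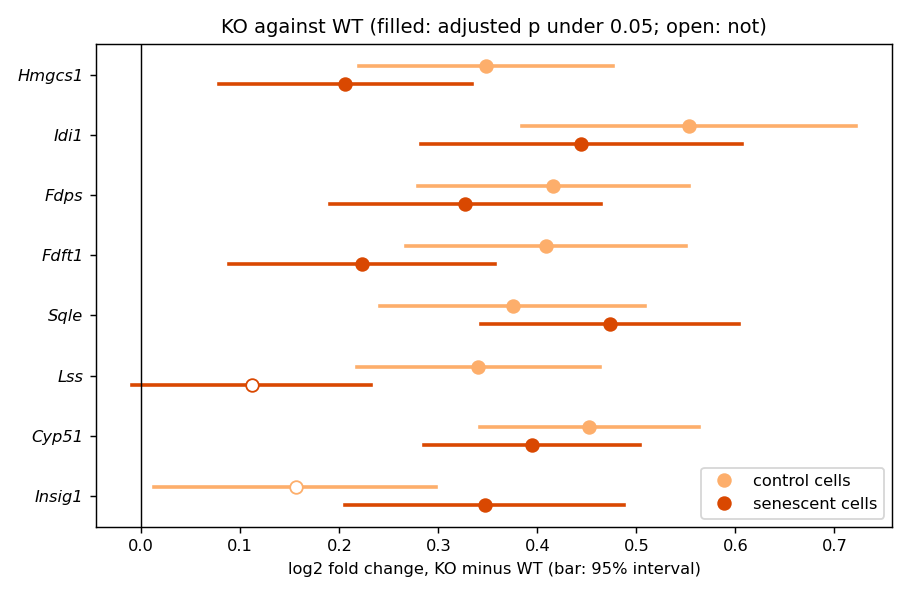
Log2 fold change of KO minus WT for each gene in control cells (pale) and senescent cells (dark), from edgeR. Bars are 95% intervals, and filled points passed at an adjusted p below 0.05. All points lie to the right of 0, and the open points are Insig1 in control cells and Lss in senescent cells.

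The difference between these genotype differences was tested as an interaction, the senescence change in KO minus that in WT. It passed for 0 of the 8 genes, against 20.9% of all genes in either direction, 9.24% higher and 11.7% lower (1.15% and 2.51% with an absolute log2 value above 1 as well). At an unadjusted p below 0.05 there was 1 gene, Lss, and DESeq2 also called 0. Lss had an interaction of -0.23 on the log2 scale, with a 95% interval from -0.40 to -0.06 (edgeR adjusted p = 0.0536), and passed at an adjusted p of 0.0303 without WT control replicate 3. Insig1 had an interaction of 0.19, from -0.01 to 0.39, and Fdft1 of -0.19, from -0.38 to 0.01. For the other 5 genes the estimates ran from -0.14 for Hmgcs1 to 0.10 for Sqle, and their 95% intervals all held 0 and reached from -0.34 to 0.29 at most. A dependence of the genotype difference on the state of the cells was therefore not shown for any of the 8, Insig1 and Lss included, although each of these passed in 1 state alone.

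To determine how the genes behaved in senescence itself, senescent and control cells were compared within each genotype. In WT cells 5 of the 8 genes were higher in senescent cells and 0 lower, against 29.2% of all genes higher and 27% lower. In KO cells 4 were higher and 2 lower, against 28.5% and 28.6%. Between senescent and control cells 56.2% of all genes passed in WT and 57.1% in KO in either direction, and the share of the 8 genes stood closer to that background than in the genotype comparisons. None of the 8 had an absolute log2 fold change above 1, which passed as higher for 11.6% and as lower for 5.9% of all genes in WT, and for 11.2% and 7.58% in KO. The libraries did not overlap for 5 genes that were higher in WT senescent cells (33.4% of all genes, and 29.7% in the lower direction, where 0 of the 8 stood), and in KO for 4 higher and 2 lower genes (30.8% of all genes in each direction).

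Fdft1 rose most among the 8 genes. In WT its mean went from 30.8 ± 2.03 CPM in control to 49.3 ± 1.53 in senescent cells (SD, n = 3), a log2 fold change of 0.68 ± 0.067 (SE, edgeR adjusted p = 2.24e-08), and in KO from 40.9 ± 1.16 to 57.6 ± 4.23, a log2 fold change of 0.49 ± 0.065 (edgeR adjusted p = 1.48e-06). The opposite-strand neighbour Ctsb rose as well, by log2 fold changes of 1.06 in WT and 1.01 in KO, and whether the counting used strand is not given in the sources used here. Reads from Ctsb in the shared exon bases could not be told apart from those of Fdft1, and their part in the rise was not tested. Idi1 rose by 0.36 ± 0.081 in WT (edgeR adjusted p = 0.000683) and by 0.25 ± 0.078 in KO (edgeR adjusted p = 0.00808), the latter not passing without KO senescent replicate 3 (adjusted p = 0.0773). Sqle rose by 0.31 ± 0.064 in WT (edgeR adjusted p = 0.000359) and by 0.40 ± 0.063 in KO (edgeR adjusted p = 1.16e-05). All 3 genes thus rose in both genotypes.

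Hmgcs1 and Fdps fell in KO cells, while Idi1, which acts between them in the pathway, rose in both genotypes. Hmgcs1 fell from a mean of 143 ± 5.25 CPM to 118 ± 5.77 CPM (SD, n = 3), a log2 fold change of -0.28 ± 0.061 (SE, edgeR adjusted p = 0.000564), and Fdps fell from 65.3 ± 4.15 to 56.3 ± 3.73 CPM, by a log2 value of -0.22 ± 0.065 (edgeR adjusted p = 0.00725). Fdps did not pass without KO control replicate 2 (adjusted p = 0.0541). In WT cells both had estimates of -0.13, which did not pass (edgeR adjusted p = 0.0694 for Hmgcs1 and 0.11 for Fdps). Both passed as lower in WT cells when only the compared groups were fitted (adjusted p = 0.0288 and 0.0294), and Hmgcs1 also without WT control replicate 1 (0.0237) and without WT senescent replicate 2 (0.0347). The interaction of either gene did not pass, so the change was not shown to differ between the genotypes.

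Lss and Cyp51 passed in WT cells only. The Lss mean was 41.5 ± 2.81 in control and 48.5 ± 0.422 CPM in senescent cells, a log2 fold change of 0.22 ± 0.059 (edgeR adjusted p = 0.00272), and that of Cyp51 was 85.8 ± 2.17 and 95.1 ± 2.54 CPM, a log2 fold change of 0.15 ± 0.053 (edgeR adjusted p = 0.0228). The Cyp51 call did not hold without WT control replicate 1, WT control replicate 3 or WT senescent replicate 2 (adjusted p = 0.0672, 0.0712 and 0.102). Nor did it hold with all libraries when low counts were not filtered (adjusted p = 0.0728). In KO cells Lss was near level at -0.0046, from -0.12 to 0.12, and Cyp51 stood at 0.09, from -0.02 to 0.20, and passed without KO senescent replicate 1 (adjusted p = 0.0267). Insig1 passed in KO cells only, from 66.6 ± 4.39 to 80.5 ± 6.97 CPM with a log2 fold change of 0.27 ± 0.067 (edgeR adjusted p = 0.00161), and stood at 0.08, from -0.06 to 0.22, in WT cells (edgeR adjusted p = 0.323).

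The order of the 4 group means followed from both differences. Idi1, Fdft1, Sqle, Cyp51 and Insig1 had their highest mean in KO senescent cells, while Hmgcs1, Fdps and Lss had it in KO control cells. WT control was lowest for 6 of the genes and WT senescent for Hmgcs1 and Fdps. For Idi1 and Fdft1 each neighbour in the order differed by the test. For Cyp51 KO senescent and KO control did not differ beyond their spread, and for Lss the upper 3 groups could not be separated from neighbour to neighbour. Sqle did not separate between KO control and WT senescent cells, nor Fdps between WT control and WT senescent cells. For Insig1 the neighbours below KO senescent did not separate, and for Hmgcs1 neither KO senescent and WT control nor WT control and WT senescent cells did. Summed over the 8 genes the level was 434 to 475 CPM in WT control, 482 to 511 in WT senescent, 580 to 591 in KO control and 583 to 659 in KO senescent libraries, so the groups of the 2 genotypes did not overlap in this sum. Per kilobase of exon, Hmgcs1 was the most abundant of the 8 in WT control at 24.4 CPM per kb, followed by Cyp51 at 19.4 and Insig1 at 19.3, and Lss was lowest at 3.85 CPM per kb.

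The rest of the synthesis pathway was read from a list of 14 further enzymes. In KO control cells 10 of the 14 were higher than in WT and 0 lower, beside 8.07% and 4.96% of all genes. Their median log2 fold change was 0.331. Pmvk, the second kinase that acts on mevalonate, had a log2 fold change of 0.74 ± 0.1 (edgeR adjusted p = 2.74e-05), the sterol dehydrogenase Nsdhl of 0.55 ± 0.091 (edgeR adjusted p = 0.000241) and Acat2, which forms acetoacetyl-CoA ahead of Hmgcs1, of 0.48 ± 0.071 (edgeR adjusted p = 7.71e-05). In senescent cells 5 of the 14 were higher and 0 lower, with a median of 0.163, beside 11.9% and 11.8% of all genes. Msmo1, which acts downstream of Cyp51, had a log2 fold change of 0.51 ± 0.074 (edgeR adjusted p = 3.78e-05), Hsd17b7 of 0.43 ± 0.068 and Sc5d of 0.35 ± 0.059, all of them late sterol enzymes. The interaction passed as lower for 5 of the 14, among them Pmvk at -0.56 and Acat2 at -0.38, and as higher for Sc5d at 0.31. Of all genes 11.7% passed as lower and 9.24% as higher in the interaction.

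Within senescence the late enzymes were not uniform. Hsd17b7 rose by 1.01 in WT and 1.21 in KO on the log2 scale, Msmo1 by 0.83 and 0.96, and Sc5d by 0.53 and 0.85. Lbr, a sterol reductase that is also a nuclear envelope protein, went the other way with log2 fold changes of -1.52 in WT and -1.48 in KO, and Ebp, the sterol isomerase, with -0.63 and -0.85. Counted over the 14 enzymes, 6 were higher and 4 lower in WT, and 4 were higher and 6 lower in KO, beside 29.2% of all genes higher and 27% lower in WT and 28.5% and 28.6% in KO. The 4 lower enzymes in WT and the 4 higher ones in KO thus stood at about the share of all genes.

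**Figure D3:**
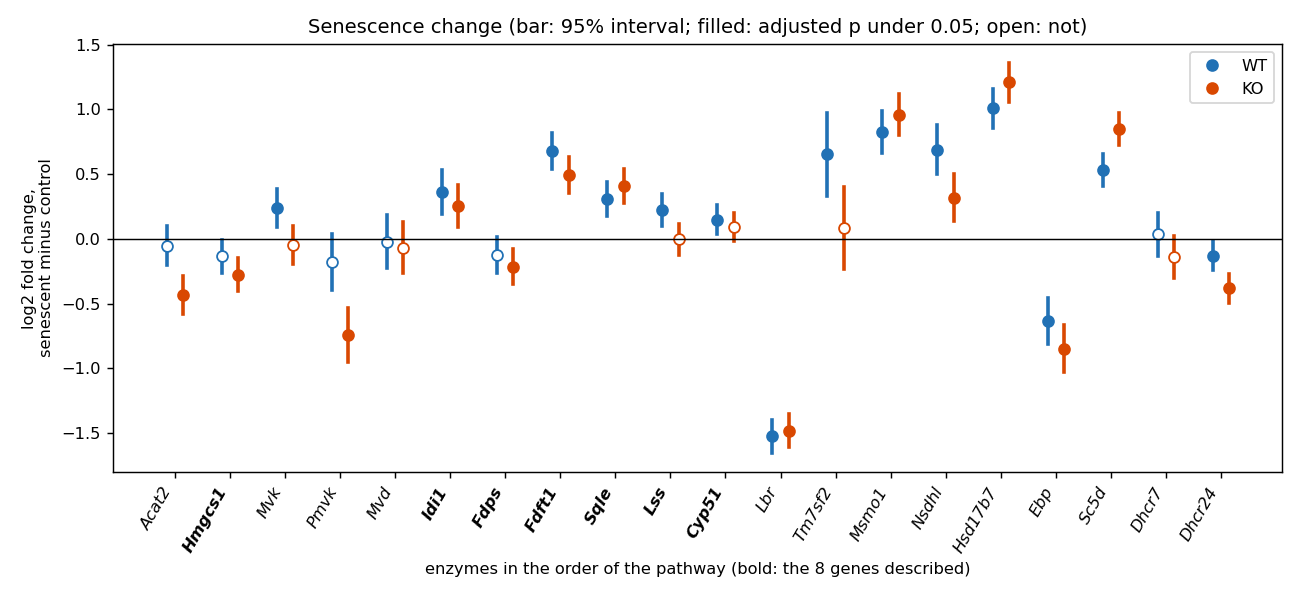
Log2 fold change of senescent minus control cells for enzymes of cholesterol synthesis, ordered from the entry of the pathway to its end, in WT (blue) and KO (orange). Bars are 95% intervals, filled points passed at an adjusted p below 0.05, and bold names are among the 8 genes described. Fdft1 and Sqle lie above 0 and Hmgcs1 and Fdps below it, while the late enzymes run from Hsd17b7 at 1.01 and 1.21 to Lbr at -1.52 and -1.48.

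The sterol-sensing machinery itself was read next. Of 12 genes for SREBP processing and sterol sensing, 1 was higher and 1 lower in KO control, beside 8.07% and 4.96% of all genes. In KO senescent cells 0 were higher and 3 lower, beside 11.9% and 11.8%. The counts in control cells thus stood near the background. Srebf2, the gene of the master regulator, was higher in KO control by 0.32 ± 0.047 on the log2 scale (edgeR adjusted p = 7.72e-05) and stood at 0.03 in senescent cells (edgeR adjusted p = 0.656), and its interaction passed at -0.29 (edgeR adjusted p = 0.0045). Scap, the escort of SREBP, had -0.19 ± 0.058 in KO senescent cells (edgeR adjusted p = 0.0216). Insig2, the paralog of Insig1, had 0.06 in control and 0.03 in senescent cells and passed in neither. Srebf1, which serves fatty acid synthesis, fell with senescence by 0.54 in WT and by 0.77 in KO on the log2 scale and did not pass between the genotypes in either state.

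Fatty acid synthesis genes, the other arm under SREBPs, were higher in KO control for 7 of 15 genes tested and lower for 0, with a median log2 fold change of 0.176. Acss2, which activates acetate, had 0.52, and the desaturase Fads1 had 0.42. In senescent cells 3 of the 15 were higher and 0 lower, with a median of -0.080. The shares of all genes were 8.07% higher and 4.96% lower in control cells, and 11.9% higher and 11.8% lower in senescent cells. With senescence itself 8 of 15 were lower and 3 higher in WT, beside 27% and 29.2% of all genes. In KO 9 of 15 were lower and 3 higher, beside 28.6% and 28.5%. The desaturase Fads2 fell, at -1.32 in WT and -1.62 in KO, while Lpin1 rose by 1.59 and 1.03 and Acacb by 1.65 in WT. Of the 8 described genes 0 were lower in WT and 2 in KO.

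Among 19 genes of lipoprotein uptake and sterol transport, 3 were higher and 0 lower in KO control, and 3 were higher and 4 lower in KO senescent cells. Of all genes, 8.07% were higher and 4.96% lower in control cells, and 11.9% higher and 11.8% lower in senescent cells. Whether the counts on so short a list differ from these shares was not tested. Npc2, which carries cholesterol out of the lysosome, was higher by 0.36 in control cells on the log2 scale, and Mylip, a sterol-induced ubiquitin ligase, had -0.67 ± 0.084 in senescent cells (edgeR adjusted p = 6.95e-06). Of 11 genes of the oxysterol receptor LXR, of efflux and of esterification, 1 was higher and 3 were lower in KO control, and 0 were higher and 5 lower in KO senescent cells. Nr1h3, which encodes LXR alpha, had -1.11 ± 0.15 in control (edgeR adjusted p = 2.6e-05) and -1.17 ± 0.14 in senescent cells (edgeR adjusted p = 4.75e-06). The efflux pump gene Abcg1 had -0.83 in control cells (edgeR adjusted p = 0.00369), but averaged 4.09 CPM in WT senescent and 4.28 in KO senescent cells. Abca1 had -0.92 in senescent cells (edgeR adjusted p = 0.00253), but averaged 261 CPM in WT control and 237 in KO control cells. Its senescent libraries read 175, 200 and 195 CPM in WT and 112, 115 and 73.8 CPM in KO, so KO senescent replicate 3 was lowest. The Abca1 interaction passed at -0.78 (edgeR adjusted p = 0.034). The isoprenoid branches that draw on farnesyl diphosphate showed 0 of 11 higher and 1 lower in control and 2 higher and 1 lower in senescent cells.

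**Figure D4:**
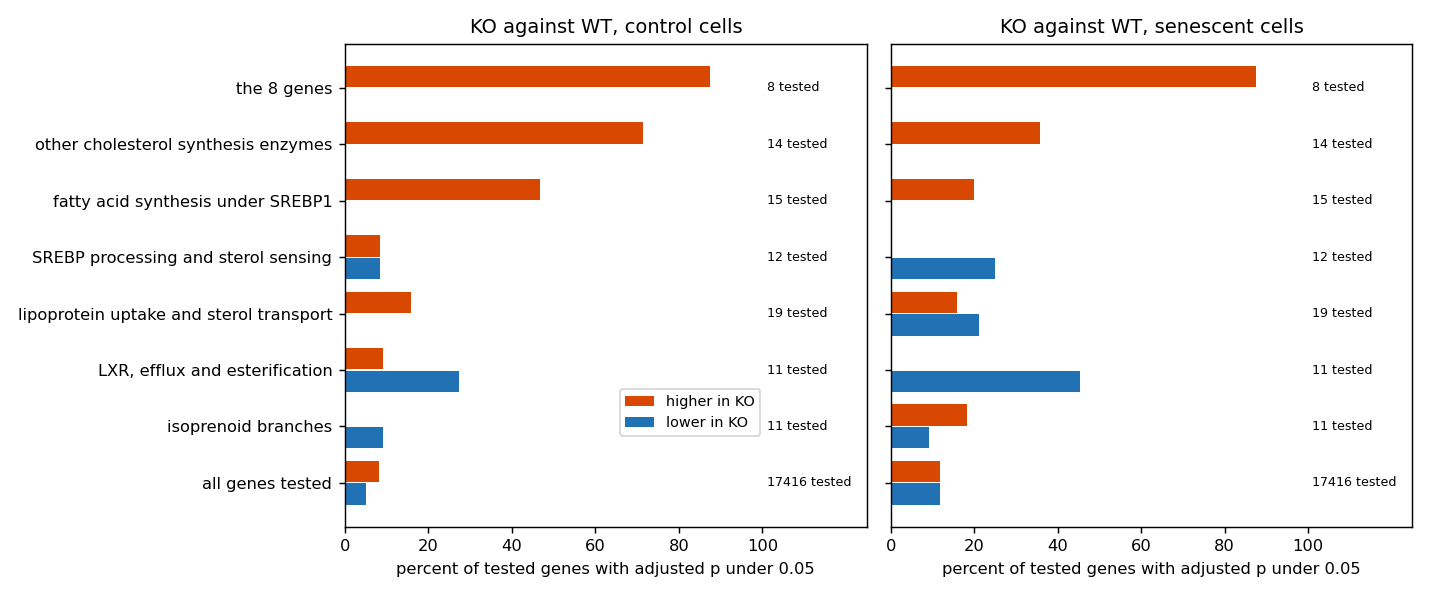
Percent of tested genes that passed as higher (orange) or lower (blue) in KO than in WT, for the 8 genes, for related gene lists and for all genes, in control and senescent cells. The bars of the 8 genes stand for 7 of 8 in both panels, those of the further enzymes for 10 and 5 of 14, and those of all genes for 8.07% and 11.9% higher.

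Within the groups the libraries lay between 8.57% below and 11.4% above their group mean. KO senescent replicate 3 had the highest level of its group for 7 of the 8 genes and KO senescent replicate 1 the lowest for 6. The largest CVs were in this group, at 10.1% for Sqle and 9.41% for Idi1. Hmgcs1 and Lss instead varied most in WT control, at 7.69% and 6.76%, against 4.89% and 1.57% in KO senescent libraries. WT control replicate 1 was lowest of its group for 6 of the genes. Over the 28 pairs of the 8 genes the median Pearson r of log2 CPM over the 12 libraries was 0.723, and after subtracting the group means it was 0.518. Hmgcs1 and Fdps had the highest r of all pairs, 0.953 over the 12 libraries and 0.788 in the deviations, and Hmgcs1 and Fdft1 the lowest over the 12 libraries, -0.09. These coefficients describe libraries that share groups and scaling and carry no test.

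**Figure D5:**
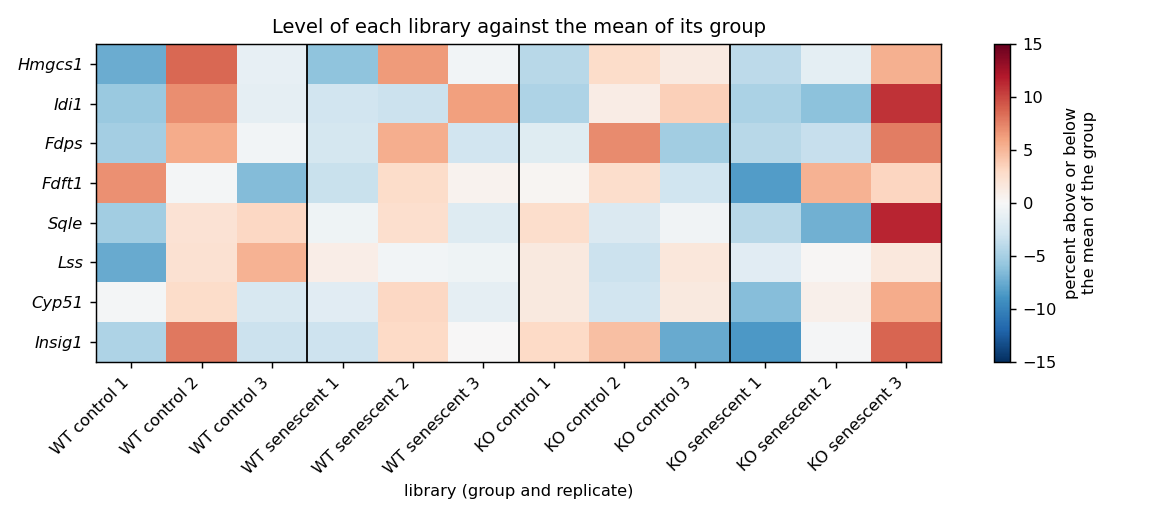
Level of each gene in each library as percent above (red) or below (blue) the mean of its group, with lines between the groups. The column of KO senescent replicate 3 is red for all 8 genes and that of KO senescent replicate 1 blue for all 8.

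Of 10938 other genes that averaged 5 CPM or more, those whose log2 CPM followed the average of the 8 genes most closely over the 12 libraries were Chpf (r = 0.977), Nrbp1 (r = 0.959), Per2 (r = 0.955) and Igfbp7 (r = 0.953). The clock gene Cry2 stood at rank 8 (r = 0.948), behind further genes. This ranking carries no test. Per2, a clock repressor, was higher in KO than in WT by 3.04 on the log2 scale in control cells and by 1.96 in senescent cells, and Cry2 by 0.71 and 0.92. When the group means were subtracted, the closest were Ddx58 (r = 0.962), Hexa (r = 0.949) and Aktip (r = 0.947), and the sterol enzyme Msmo1 was among the first 10 (r = 0.921).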

How the data were processed

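Poly(A) RNA-seq libraries (3 in each of 4 groups, taken from the sample titles) were analysed from the raw gene counts that the authors deposited in 2 tables, 1 per genotype. The authors trimmed reads with Trimmomatic 0.36, aligned them with STAR 2.5.2b to GRCm38 and counted uniquely aligned reads in exons with featureCounts. The annotation release and the use of strand are not given in the sources used here. Identifiers were matched to GENCODE M21, and 49056 of 49315 had a symbol.

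Counts were filtered by filterByExpr, scaled by TMM and fitted with edgeR 4.0.16 (robust quasi-likelihood, 1 mean per group, R 4.3.3), with Benjamini-Hochberg adjustment over 17416 genes. Intervals are 95%. A level of 3 counts, or 0.101 to 0.135 CPM per library, marks the floor, and CPM values below it were not changed. The steps were tested on simulated data. Alternatives were DESeq2 1.42.0, its size factors, no filter, the compared groups alone, replicate blocks and leaving out each library. Members of a group differed beyond sampling noise (chi-square per degree of freedom of 3.21 to 19.5). Correlations of same-numbered libraries ran from -0.125 to 0.108 in their deviations, so the numbers were not taken as pairs. Where nothing names separate animals or cultures, p-values measure the spread between these libraries only.

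The genes and lists were chosen with earlier results of these data known. The 8 genes were named in full, with set regulators and the other enzymes, and of each other list up to 3 passing genes of the largest change, with at least 5 CPM. Some genes are counted in lists but are not reported by name here. Promoter windows are from RefSeq (GRCm38.p6).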

Additional observations from a re-analysis of the deposited data

How the results depend on the processing

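In the genotype comparison of control cells all 136 alternative values of the 8 genes kept their direction and side of the threshold, and 130 of 136 did so in senescent cells. Over all 5 comparisons 670 of 696 did, with 12 losing and 8 gaining the threshold and 6 changing sign. The sign changes were those of Lss in KO senescence, reported at -0.0046, which became 0.0132 with DESeq2 size factors, 0.008 with only the compared groups, 0.0136 with DESeq2, and 0.0029, 0.0014 and 0.0167 without KO control replicate 1, KO control replicate 3 and KO senescent replicate 1 (range without single libraries -0.0335 to 0.0167). None of these values passed.

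The count of genes lower in WT senescence, 0 as reported, was 2 with only the compared groups, 1 (Hmgcs1, adjusted p = 0.0369 and 0.0449) with a replicate block shared by all groups or set within each genotype, and 0 to 1 without single libraries. The count lower in KO senescence was 1 to 2, and that lower in the interaction 0 to 1, without single libraries. The replicate block changed no other call. With an added threshold of 1 on the absolute log2 fold change, every count of the 8 genes became 0. The all-gene counts for control cells, 1405 higher and 864 lower in KO, were 911 and 497 without WT control replicate 1, and 462 and 437 lower without KO control replicates 2 and 3. Each gene had 417 counts or more in each library, and counting error and replicate spread were not separated.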
